A study of Mus musculus with 12 samples.

Results

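The ascending aorta, the stretch of the great artery that leaves the left ventricle, was set against the coronary artery, the vessel that branches from the aortic root and runs over the heart to feed its muscle. The members were the 3 arrays whose labels name the ascending aorta and the 3 whose labels name the coronary artery, 6 of the 12 arrays of the series. Both groups were RNA from untreated wild-type C57BL/6 mice aged 8 weeks, and no allele or agent set them apart. The other 6 arrays held descending aorta and superior mesenteric artery, 3 each, and entered the model as further vessels. The labels call the 3 arrays of a vessel biological replicates without saying whether each came from 1 mouse or from pooled vessels. The spread behind the p-values is that between arrays of the same vessel, shared over all 4 vessels, and may in part be technical. The submitters looked for expression profiles tied to the embryonic origin of a vessel.

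Values are on the log2 scale, on which a step of 1 is a 2-fold change, and 19938 genes were tested. A difference is ascending aorta minus coronary artery, given ± SE from the limma model, and adjusted p-values come from limma with Benjamini-Hochberg adjustment over all genes and a threshold of 0.05. Detection calls were not used here, so the lowest values may lie at background. The cartilage genes, for one, averaged between 3.41 and 3.62 in the 12 arrays, and a fold against a group at background would understate the change.

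Large elastic arteries such as the aorta have a media of smooth muscle layers alternating with elastic sheets, which store each heartbeat's pressure and release it between beats. Coronary arteries are smaller muscular vessels that lie within or against the heart wall, beneath the epicardium, and their smooth muscle derives largely from epicardial progenitors. Smooth muscle of the ascending aorta derives from the second heart field and the cardiac neural crest. The thoracic aorta of the mouse is wrapped in brown fat, a tissue that burns lipid to make heat.

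Ascending aorta replicate 1 stood apart from the other ascending aorta and coronary artery arrays before any comparison was made. Glycam1, a mucin of the high endothelial venules of lymph nodes, was at 11.16, 2.91 and 2.30 in the ascending aorta arrays, against 2.73, 2.30 and 2.79 in the coronary artery arrays. Genes of B cells and plasma cells had a mean of 7.68, 4.12 and 4.10 in ascending aorta, against 4.60, 4.59 and 3.92 in coronary artery. The T cell list averaged 7.38, 3.81 and 4.73 in ascending aorta and 4.12, 5.43 and 3.89 in coronary artery. Raised lymphocyte lists were not confined to that array in the series. In superior mesenteric artery, which shares the model, the B cell list averaged 4.77, 6.68 and 6.42 and the T cell list 4.66, 5.69 and 5.59. In ascending aorta replicate 1 the smooth muscle, elastic fibre, fibroblast and fat lists all lay below the other ascending aorta arrays, as the plot of list means shows. Counts of genes passing in the lists are therefore given with all 12 arrays and without that array, and values without it are added for many of the genes whose calls depend on it. Coronary artery replicate 2 had the highest Rag1 among the 6, at 6.43, against 2.37, 3.48 and 5.25 in ascending aorta and 3.60 and 2.56 in the other coronary arrays; Rag1 marks immature lymphocytes such as those of the thymus. Coronary artery replicate 1 had Scgb1a1, an airway secretory gene, at 9.16, against 3.62, 7.18 and 6.83 in ascending aorta and 2.87 and 5.14 in the other coronary arrays. The part of these transcripts in the results was not tested beyond leaving out each array.

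**Figure D1:**
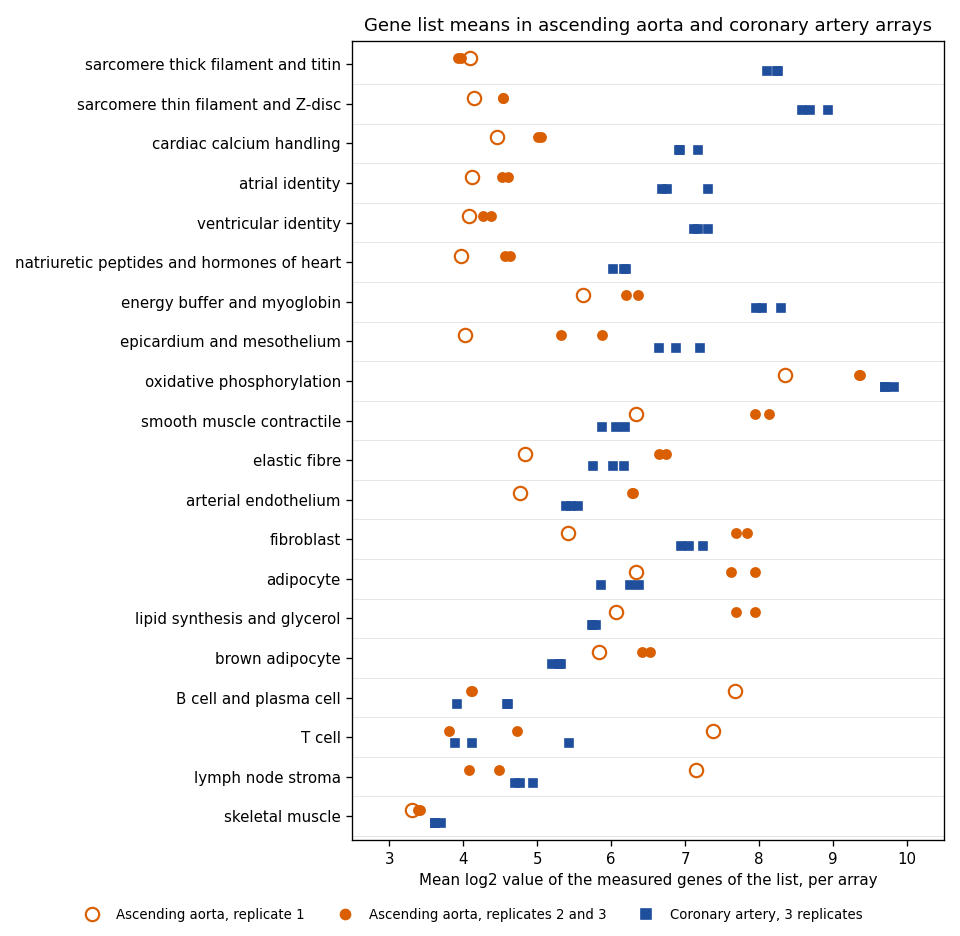
Mean log2 value of the measured genes of 20 lists (rows) in each array, ascending aorta as circles (replicate 1 open) above coronary artery as squares. The heart muscle lists separate the vessels without overlap, whereas ascending aorta replicate 1 lies apart from replicates 2 and 3 in the smooth muscle, matrix, fat and lymphocyte lists.

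Defining markers of smooth muscle were present in both vessels and brighter in ascending aorta. Acta2, the smooth muscle actin, was at 9.52, 11.17 and 11.23 in ascending aorta and at 7.97, 7.96 and 7.22 in coronary artery. Cnn1, calponin, a smooth muscle actin-binding protein, was at 6.81, 9.33 and 9.66 in ascending aorta and at 4.67, 5.12 and 3.61 in coronary artery, where the lowest array was close to the level of the cartilage list. The cardiomyocyte markers Tnnt2, Tnni3, Myh6 and Actc1 ran from 9.01 to 11.89 in the coronary artery arrays and from 2.51 to 6.51 in the ascending aorta arrays. The arrays labelled coronary artery thus held abundant heart muscle RNA beside that of the vessel. In RNA from a piece of tissue, fewer cells of a type and less RNA per cell cannot be told apart, and this holds for every list below.

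Genes of heart muscle led those lower in ascending aorta, while genes of smooth muscle, brown fat and lipid synthesis led those higher in it. With all arrays, 493 genes (2.47% of those tested) passed a limma adjusted p of 0.05, of which 120 (0.602%) were higher in ascending aorta and 373 (1.87%) lower. When ascending aorta replicate 1 was left out, 768 genes (3.85%) passed, with 404 (2.03%) higher and 364 (1.83%) lower. At an unadjusted limma p under 0.05 it was 2948 of the 19938 genes with all arrays and 2938 without that replicate. The unadjusted counts of the lists below are to be read against these. The median difference of all genes was 0.0042 with all arrays and -0.0090 without that replicate. Of the lower genes, 307 were called in both fits, which is 82.3% of the list from all arrays and 84.3% of the list without replicate 1. Of the higher genes, 97 were called in both, which is 80.8% of the 120 with all arrays and 24% of the 404 without replicate 1. The genes higher only without replicate 1 numbered 307, and in 303 of them replicate 1 lay below both other ascending aorta arrays. In 214 of the 307 it lay at or below the highest coronary artery array. Both counts follow largely from how the 307 were picked, since they pass only when replicate 1 is left out. The fit without replicate 1 holds 2 ascending aorta arrays, and 76 of the 156 named genes called in it passed under every alternative.

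The sizes were uneven in the same way. With all arrays, 325 of the lower genes and 89 of the higher genes differed at least 2-fold. At least 16-fold differences were reached by 39 lower and 4 higher genes, and at least 128-fold differences by 9 lower and 0 higher genes. Without replicate 1 the corresponding counts at 16-fold were 38 lower and 5 higher. The count of higher genes fell to 67 without ascending aorta replicate 2, to 76 without replicate 3, to 55, 40 and 35 without coronary artery replicate 1, 2 or 3, and to 77 without descending aorta replicate 1. The count of lower genes fell to 240 and 216 without coronary artery replicate 2 or 3.

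**Figure D2:**
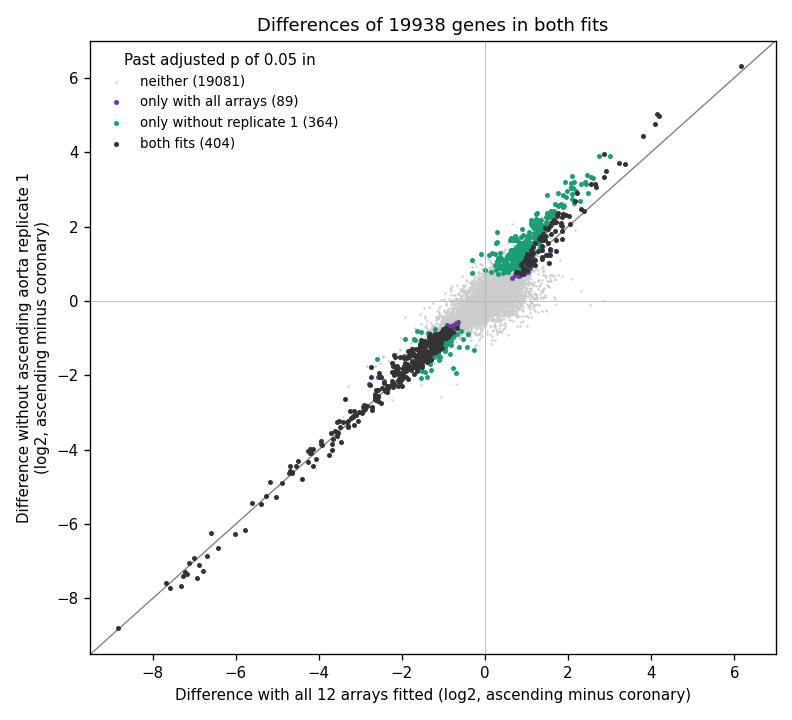
Difference of each gene (log2, ascending aorta minus coronary artery) with all 12 arrays on the horizontal axis and without ascending aorta replicate 1 on the vertical axis; the grey line marks equal values. Points past the adjusted p of 0.05 only without replicate 1 (364 genes) lie mostly above the line at positive differences, while the large negative differences lie along it.

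Genes of the thick filament, the myosin side of the contractile unit, were lower in ascending aorta as a group. Of 14 measured members of the list, 12 were lower and 0 higher with all arrays, and the same counts held without replicate 1, with a median difference of -3.77 and -4.02 in the 2 fits. Myl2, the regulatory light chain of ventricular myosin, was at 3.22, 3.49 and 3.09 in ascending aorta, against 12.13, 11.94 and 12.20 in coronary artery. The vessels were far apart and each was tight, and the difference of -8.82 ± 0.21 was a 453-fold lower level in ascending aorta (limma adjusted p = 2.02e-10). Myl3, the ventricular essential light chain, was at 3.95, 4.11 and 4.29 in ascending aorta and at 11.15, 10.84 and 11.36 in coronary artery, a difference of -7.00 ± 0.43 (limma adjusted p = 1.35e-06).

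Light chains of atrial type were lower too. Myl7, the atrial regulatory light chain, was at 5.56, 4.21 and 5.56 in ascending aorta and at 12.02, 12.40 and 11.57 in coronary artery, a difference of -6.89 ± 1.18 (limma adjusted p = 0.00694). Myl4, the atrial essential light chain, was at 5.63, 4.43 and 4.64 in ascending aorta and at 10.68, 10.89 and 10.49 in coronary artery. Neither gene overlapped between the vessels. Myh6, the main myosin heavy chain of the adult mouse heart, was at 3.37, 2.51 and 2.93 in ascending aorta against 9.49, 9.01 and 9.56 in coronary artery, an 85.6-fold lower level (limma adjusted p = 1.79e-06). Ckm, muscle creatine kinase, which the list carries as an M-line enzyme, was lower by a difference of -4.63 ± 0.35.

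Thin filament and Z-disc genes, which hold and regulate actin, were also lower, 16 of 20 members with all arrays, with 0 higher, and 17 without replicate 1. Tnnc1, the calcium sensor of the cardiac troponin complex, was at 4.17, 3.70 and 3.85 in ascending aorta and at 11.52, 11.40 and 11.55 in coronary artery, a difference of -7.58 ± 0.54 (limma adjusted p = 3.37e-06). Actc1, cardiac actin, was at 4.50, 4.07 and 4.16 in ascending aorta and at 11.56, 11.37 and 11.60 in coronary artery, a difference of -7.27 ± 1.09 (limma adjusted p = 0.00249). Both sets of values were tight within a vessel; the model shares 1 spread over the 4 vessels, and Actc1 was uneven in the others, at 7.85, 4.60 and 4.14 in descending aorta and 9.39, 4.35 and 5.87 in superior mesenteric artery.

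Smpx, a small protein of striated muscle costameres, was at 2.32, 2.33 and 2.89 in ascending aorta and at 10.01, 10.33 and 10.25 in coronary artery, a 205.5-fold lower level. Csrp3, a LIM protein of the Z-disc, was at 3.88, 3.63 and 3.14 in ascending aorta and at 10.82, 10.69 and 10.65 in coronary artery. For both genes every ascending aorta array lay far below every coronary array. Tnni3, cardiac troponin I, was at 5.91, 4.75 and 4.34 in ascending aorta against 11.89, 11.79 and 11.73 in coronary artery, and its difference was -6.80 with all arrays and -7.25 without replicate 1. Myoz2, a calcineurin-binding Z-disc protein, was at 3.73, 4.84 and 4.78 in ascending aorta and at 11.05, 10.95 and 11.15 in coronary artery, a 97.2-fold lower level.

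**Figure D3:**
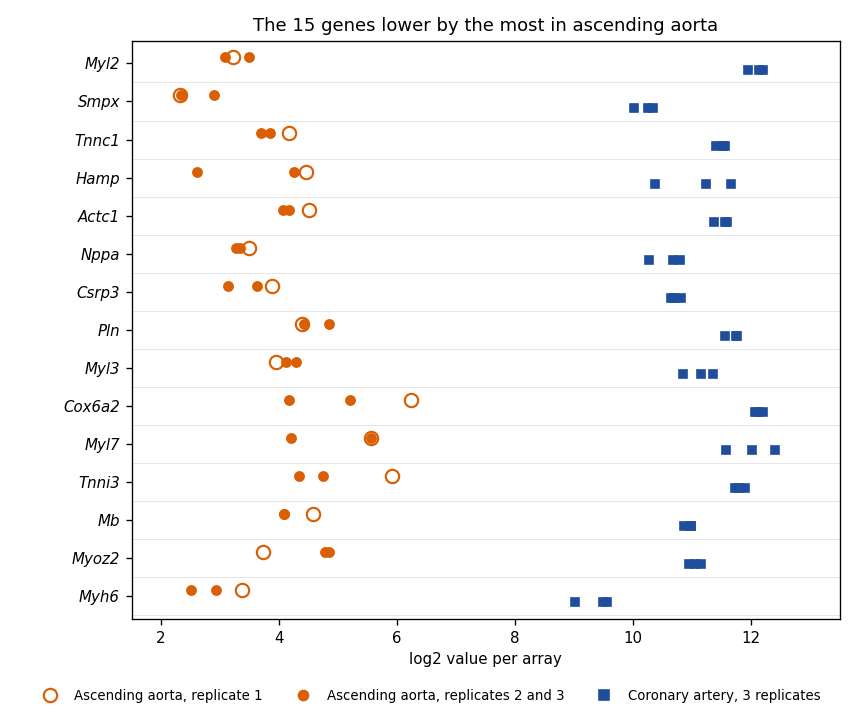
Log2 value per array of the 15 genes lower by the most in ascending aorta (rows, largest difference at the top), ascending aorta as circles (replicate 1 open) and coronary artery as squares. No gene overlaps between the vessels, and replicate 1 lies with replicates 2 and 3 for these genes. The rows were picked for their differences in these same arrays, so the separation describes the picked genes only.

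The window before the start of 4 genes, picked from those that carry the same short element in it, is shown. They are the heart myosin light chain genes Myl3 and Myl7, the smooth muscle light chain gene Myl9, on the opposite side of the comparison, and the cardiac actin gene. The element is the CArG box, the binding site of serum response factor, a regulator of muscle actin and myosin genes. Sequences are the 250 bases before the annotated gene start from RefSeq on GRCm38.p6, read 5′ to 3′ on the gene's strand, with the CArG box in capitals. Actc1 lies on the minus strand (chr2:114052876-114053125), Myl3 on the plus strand (chr9:110763428-110763677), Myl7 on the minus strand (chr11:5898783-5899032) and Myl9, the smooth muscle regulatory light chain, on the plus strand (chr2:156775214-156775463).
Actc1: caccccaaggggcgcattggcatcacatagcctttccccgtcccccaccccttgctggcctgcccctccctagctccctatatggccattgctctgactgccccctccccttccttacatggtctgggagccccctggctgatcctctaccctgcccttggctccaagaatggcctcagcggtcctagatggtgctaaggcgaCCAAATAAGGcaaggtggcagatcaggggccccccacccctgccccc
Myl3: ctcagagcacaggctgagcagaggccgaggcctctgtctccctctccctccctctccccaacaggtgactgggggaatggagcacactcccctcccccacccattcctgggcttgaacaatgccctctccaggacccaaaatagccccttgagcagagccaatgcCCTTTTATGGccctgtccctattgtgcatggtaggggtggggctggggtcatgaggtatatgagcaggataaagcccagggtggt
Myl7: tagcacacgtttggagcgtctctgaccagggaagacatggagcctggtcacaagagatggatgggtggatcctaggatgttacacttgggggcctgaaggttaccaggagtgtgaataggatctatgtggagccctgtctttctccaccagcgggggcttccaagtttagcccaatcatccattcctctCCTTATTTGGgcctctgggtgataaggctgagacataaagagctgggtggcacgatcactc
Myl9: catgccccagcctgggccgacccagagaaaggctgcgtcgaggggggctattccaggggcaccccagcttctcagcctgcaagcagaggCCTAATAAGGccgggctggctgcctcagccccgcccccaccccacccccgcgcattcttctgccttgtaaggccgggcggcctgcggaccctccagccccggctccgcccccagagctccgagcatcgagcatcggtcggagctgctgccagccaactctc
The box begins 47 bases before the start in Actc1, 85 in Myl3, 61 in Myl7 and 161 in Myl9. Actc1, Myl3 and Myl7 were lower in ascending aorta, and Myl9, described with the smooth muscle genes, passed the threshold as higher without replicate 1. Both strands of each 250-base window were searched, and the box was found in 482 of 32851 windows (1.47%). Counted by gene, as in the shares that follow, it stood in 227 of the 15614 tested genes with an entry (1.45%). Among the 373 genes lower in ascending aorta, 306 had a promoter entry and 12 of these (3.92%) held a box, among them Actc1, Myl3, Myl7, Fhl2 and Hopx. Of the 120 higher genes, 88 had an entry and 1 (1.14%) held a box, Cnn2. Of the 404 higher without replicate 1, 297 had an entry and 6 (2.02%) held it. Of list members with an entry, the box stood in 3 of 13 thick filament genes and 4 of 16 thin filament and Z-disc genes. In the smooth muscle contractile list it stood in 3 of 19. Myl2 and Myl4 were not among the holders. The MCAT core, CATTCC, stood in 17.3% of the lower and 10.2% of the higher genes' windows with all arrays, against 13.2% of the 15614 tested genes with an entry. Among the higher genes without replicate 1 its share was 14.5%. The core stood in 5 of 13 thick filament, 6 of 16 thin filament and Z-disc, and 9 of 19 smooth muscle contractile genes. A match describes the letters in the window and not use of the site.

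Calcium handling genes, which drive contraction and relaxation of the heart cell, were lower for 8 of 17 members and higher for 0, in both fits. Pln, phospholamban, the brake on the calcium pump of the sarcoplasmic reticulum, was at 4.39, 4.85 and 4.42 in ascending aorta and at 11.75, 11.56 and 11.76 in coronary artery, a 141-fold lower level (limma adjusted p = 0.000278). Sln, sarcolipin, a pump regulator of atrial muscle, was at 3.34, 3.39 and 3.30 in ascending aorta and at 6.03, 8.47 and 6.16 in coronary artery. Its coronary values were uneven, with replicate 2 the highest. Ryr2, the calcium release channel, was lower by a difference of -3.21 ± 0.29, and Casq2 and Hrc, calcium-binding proteins of the reticulum, by -4.73 ± 0.57 and -4.70 ± 0.35.

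Trdn, triadin, which anchors calsequestrin to the release channel, differed by -4.15 in its brightest probe set. The array carries 19 probe sets for it, and each had a negative difference, between -6.00 and -0.11. Ion channel genes of the heart were lower for 5 of 17 members, in both fits. Kcnj3 and Kcnj5, the subunits of the acetylcholine-activated potassium channel of the atria, were lower by differences of -2.65 ± 0.26 and -2.04 ± 0.20. Kcnj3 was at 2.93, 3.16 and 3.05 in ascending aorta and at 5.76, 6.27 and 5.06 in coronary artery. Kcnd2 and Kcnip2, parts of the transient outward current, and Kcne1, a potassium channel accessory subunit, were the others. In the fit of the 6 arrays alone, Kcnd2 missed the threshold at a limma adjusted p of 0.0651 and Kcnip2 at 0.115. Kcnip2 also missed it without ascending aorta replicate 2 (0.0567) or coronary artery replicate 3 (0.075).

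Genes of the junctions and costameres that join heart cells were lower for 6 of 16 members with all arrays and 8 without replicate 1. Popdc2, a membrane protein of heart cells that binds cyclic AMP, was at 3.98, 3.84 and 5.52 in ascending aorta and at 8.75, 8.41 and 8.78 in coronary artery, a difference of -4.20 ± 0.58 (limma adjusted p = 0.00131). Pkp2, a plakophilin of desmosomes, and Cdh2, N-cadherin, were lower by differences of -2.57 ± 0.31 and -2.19 ± 0.30. Dsp, desmoplakin, at 4.29, 5.09 and 5.90 in ascending aorta and 7.02, 6.55 and 7.53 in coronary artery, lost its call without coronary artery replicate 1 or 3 and when the 6 arrays were fitted alone, where its limma adjusted p was highest at 0.102. Gja5, connexin 40, which is both an atrial and an arterial endothelial gap junction protein, is described with the endothelium.

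Of 22 cardiac transcription factors 6 were lower in each fit, 5 of them in both. Tbx20, a T-box factor of the heart, was at 2.42, 3.06 and 3.51 in ascending aorta and at 6.57, 5.74 and 6.46 in coronary artery, a difference of -3.26 ± 0.27 (limma adjusted p = 1.59e-05). Tbx5, a T-box factor with a strong role in the atria, was at 2.44, 2.42 and 3.01 in ascending aorta and at 5.99, 6.24 and 5.16 in coronary artery. Neither overlapped between the vessels. Hopx, a homeodomain-only cofactor, and Smyd1, a muscle methyltransferase, were lower by -3.06 ± 0.26 and -2.35 ± 0.21. Without replicate 1, a pair of members passed in the other direction, Hey2 and Isl1, given below.

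Both chamber programmes were represented among the lower genes. The atrial list had 8 of 14 members lower with all arrays, with a median difference of -2.90, and the ventricular list 7 of 10, with a median of -1.11. Without replicate 1 the counts were 8 lower and 1 higher in the atrial list, and 6 lower and 1 higher in the ventricular list, the higher genes being Gja5 and Hey2. The ventricular count was 4 without coronary artery replicate 3 or with the 6 arrays fitted alone. Nppa, atrial natriuretic peptide, was at 3.49, 3.27 and 3.33 in ascending aorta and at 10.27, 10.80 and 10.68 in coronary artery, a 149-fold lower level (limma adjusted p = 2.61e-08). Mybphl, a myosin-binding protein of the atria, was at 4.28, 3.77 and 3.80 in ascending aorta and at 8.04, 8.98 and 7.06 in coronary artery. Within the coronary artery, replicate 2 had the highest Sln, Mybphl, Tbx5, Kcnj3, Myl7 and Nppa. The same array had the lowest Nppb, a peptide hormone made by stretched heart muscle, at 6.28 against 7.70 and 7.89 in the other coronary arrays. Fhl2, a LIM protein abundant in ventricle, was at 3.83, 3.87 and 3.85 in ascending aorta and at 9.04, 8.75 and 9.57 in coronary artery, a 38.5-fold lower level.

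Heart hormones and their partners were lower for 6 of 15 members in both fits. Hamp, hepcidin, the hormone that limits iron export from cells, was at 4.46, 4.26 and 2.61 in ascending aorta and at 11.24, 11.66 and 10.38 in coronary artery, a difference of -7.32 ± 1.11 (limma adjusted p = 0.00273). Its paralogue Hamp2 was at 5.63, 5.46 and 5.84 in ascending aorta and at 8.41, 9.17 and 7.26 in coronary artery, with the same order of replicates in the coronary artery. The paralogues are near-identical in sequence, so how far their probes separate them is uncertain. Nppb was lower by -4.21 ± 0.37, and Corin, the protease that activates natriuretic peptides, by -2.35 ± 0.34. Npr3, the receptor that clears the peptides, was at 3.61, 4.50 and 5.65 in ascending aorta and at 7.37, 7.26 and 6.72 in coronary artery; it missed the threshold at a limma adjusted p of 0.0645 when the 6 arrays were fitted alone.

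Among energy genes, forms restricted to muscle were lower in ascending aorta. The list of the energy buffer and myoglobin had 8 of 18 members lower in both fits. Mb, myoglobin, the oxygen store of muscle, was at 4.58, 4.09 and 4.08 in ascending aorta and at 10.98, 10.87 and 10.99 in coronary artery, a 104-fold lower level (limma adjusted p = 2.14e-06). Ckmt2, mitochondrial creatine kinase of sarcomeric muscle, was at 2.64, 3.30 and 3.05 in ascending aorta and at 8.69, 8.32 and 8.78 in coronary artery. Pgam2 and Eno3, the muscle forms of glycolytic enzymes, were lower by -6.01 ± 0.41 and -4.40 ± 0.33.

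Few genes of mitochondrial respiration, which most tissues share, passed the threshold. Of 40 oxidative phosphorylation genes, 2 were lower and 0 higher with all arrays, and 3 were lower and 2 higher without replicate 1, while 38 of the 40 differences were negative with all arrays and 32 without it. The median difference of the list was -0.62 with all arrays and -0.24 without replicate 1. At an unadjusted limma p under 0.05 it was 19 of the 40 and 11 of the 40, against 2948 and 2938 of all 19938 genes. The list thus leaned lower in ascending aorta by small differences. Cox6a2, the muscle form of a cytochrome oxidase subunit, was at 6.24, 4.16 and 5.20 in ascending aorta and at 12.12, 12.07 and 12.20 in coronary artery, a 122-fold lower level. Its widely expressed counterpart Cox6a1 was at 10.89, 11.45 and 11.58 in ascending aorta and at 10.84, 10.83 and 10.57 in coronary artery. Cox6a1 passed as higher without replicate 1 and not with all arrays (difference 0.77 ± 0.19, limma adjusted p = 0.0368), and in that fit it lost its call under 9 of 19 alternatives, at a highest adjusted p of 0.234. Of 21 genes each in the tricarboxylic acid cycle and fatty acid oxidation lists, Idh2 and Mdh1 of the cycle were lower, and Ppara, a regulator of fatty acid use, was higher by 1.03 ± 0.24. Without replicate 1 the cycle also had 1 gene higher, Pdhb, and its median difference was 0.40, against -0.005 with all arrays. Idh2 missed the threshold when the 6 arrays were fitted alone (limma adjusted p = 0.0676). Mdh1 missed the threshold without any 1 of the coronary arrays and under 2 other alternatives, and Ppara missed it under 10 of 20 alternatives, with a highest limma adjusted p of 0.122 for Mdh1 and 0.143 for Ppara.

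Genes of the epicardium and mesothelium, the cell sheet that covers the heart and lines body cavities, were lower in ascending aorta. All 19 measured members had negative differences with all arrays and 17 without replicate 1, and 6 passed as lower with all arrays and 4 without it. Tcf21, a transcription factor of epicardium-derived fibroblasts, was at 3.90, 5.21 and 5.72 in ascending aorta and at 7.99, 7.52 and 7.64 in coronary artery, a difference of -2.77 ± 0.44 (limma adjusted p = 0.00362). Wt1, a transcription factor of the epicardium, was at 3.91, 4.97 and 5.22 in ascending aorta and at 7.08, 6.99 and 6.52 in coronary artery. Replicate 1 was the lowest ascending array for both. Upk1b and Muc16, surface genes of mesothelium, were lower by -3.37 ± 0.73 and -2.75 ± 0.63. Msln and Gpm6a passed with all arrays and missed without replicate 1, at limma adjusted p-values of 0.0527 and 0.0607. The count of lower members was 1 without coronary artery replicate 1 or 2, 2 without coronary artery replicate 3 or descending aorta replicate 1, and 3 without ascending aorta replicate 2.

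Few endothelial genes passed with all arrays. Of 22 pan-endothelial genes 1 was lower with all arrays, Flt1, a receptor of vascular endothelial growth factor, at 4.56, 4.45 and 4.54 in ascending aorta and 6.29, 5.97 and 6.11 in coronary artery. Kdr, the main receptor of that factor, was at 4.71, 3.42 and 3.87 in ascending aorta and at 5.75, 5.46 and 5.35 in coronary artery and passed without replicate 1 (limma adjusted p = 0.00762), but not when replicate 2 was left out as well (0.123). Pecam1, a junction protein of all endothelium, was at 7.52, 8.79 and 9.0 in ascending aorta and at 8.14, 7.97 and 7.55 in coronary artery, and its ranges overlapped. Gpihbp1, which carries lipoprotein lipase across capillary endothelium, was at 5.92, 6.46 and 6.92 in ascending aorta and at 8.25, 7.93 and 8.27 in coronary artery, a difference of -1.71 ± 0.31 (limma adjusted p = 0.0105). The list of 15 capillary and lipid-transport genes had 1 lower and 1 higher with all arrays, and 2 lower and 1 higher without replicate 1. Of 10 endocardial and venous genes 2 were lower with all arrays, and 3 were lower and 1 higher without replicate 1. Flt1 lost its call under 8 of 20 alternatives, with a highest limma adjusted p of 0.113, and Gpihbp1 without coronary artery replicate 3 (0.0595).

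Of 14 arterial endothelial genes 0 passed in limma with all arrays (4 at an unadjusted p under 0.05) and 4 were higher without replicate 1. With array weights 3 were higher, and without ascending aorta replicate 3 there was 1 higher and 1 lower. Gja5 was at 4.0, 7.86 and 7.77 in ascending aorta and at 3.52, 4.69 and 5.13 in coronary artery, so replicate 1 lay within the coronary range and the other arrays far above it. Its difference was 2.10 ± 0.82 with all arrays (limma adjusted p = 0.249) and 3.37 ± 0.42 without replicate 1 (0.000378). Gkn3, a marker of arterial endothelium in mouse, was at 2.96, 5.32 and 5.44 in ascending aorta and at 3.62, 3.23 and 3.36 in coronary artery. It differed by 1.97 ± 0.22 without replicate 1 (limma adjusted p = 0.000156).

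Of 24 contractile genes of smooth muscle, 4 were higher in ascending aorta with all arrays and 12 without replicate 1, and 1 was lower in both fits. The median difference of the list was 1.37 with all arrays and 1.97 without that replicate. Itga8, an integrin subunit of vascular smooth muscle, was at 6.55, 8.86 and 8.97 in ascending aorta and at 4.16, 3.50 and 4.16 in coronary artery, an 18.2-fold higher level (limma adjusted p = 0.0163). Myh11, smooth muscle myosin heavy chain, was at 7.70, 9.50 and 9.86 in ascending aorta and at 5.29, 5.02 and 4.45 in coronary artery, a difference of 4.10 ± 0.84 (limma adjusted p = 0.0226). For these genes replicate 1 lay between the coronary artery arrays and the other ascending aorta arrays. Cnn1 was higher by 4.13 ± 0.84 (limma adjusted p = 0.0209) and Acta2 by 2.92 ± 0.63 (0.0292), and without replicate 1 their differences were 5.03 ± 0.73 and 3.48 ± 0.60.

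These 4 calls rested on few arrays. Without ascending aorta replicate 2 or 3, or without any 1 of the 3 coronary artery arrays, 0 members of the list passed as higher, while its median difference stayed between 1.10 and 1.37. Tagln, transgelin, an actin-binding protein of smooth muscle, was at 6.82, 9.50 and 9.46 in ascending aorta and at 5.78, 5.92 and 5.07 in coronary artery; it passed without replicate 1 (difference 3.89 ± 0.63, limma adjusted p = 0.0028) and not with all arrays (0.0631). Myl9 was at 8.45, 11.20 and 11.44 in ascending aorta and at 8.67, 8.77 and 7.44 in coronary artery, where replicate 1 fell inside the coronary range. Its difference without replicate 1 was 3.03 ± 0.56 (limma adjusted p = 0.00656), and the call ended when replicate 2 or 3 was left out too, at a highest adjusted p of 0.0752. The lower member was Ppp1r12b, a myosin phosphatase subunit also expressed in heart, at 5.72, 4.91 and 5.56 in ascending aorta and 6.72, 6.31 and 7.42 in coronary artery; it is named here only to complete the count, with its values known. Without ascending aorta replicate 2, or coronary artery replicate 1 or 3, 0 members passed as lower.

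**Figure D4:**
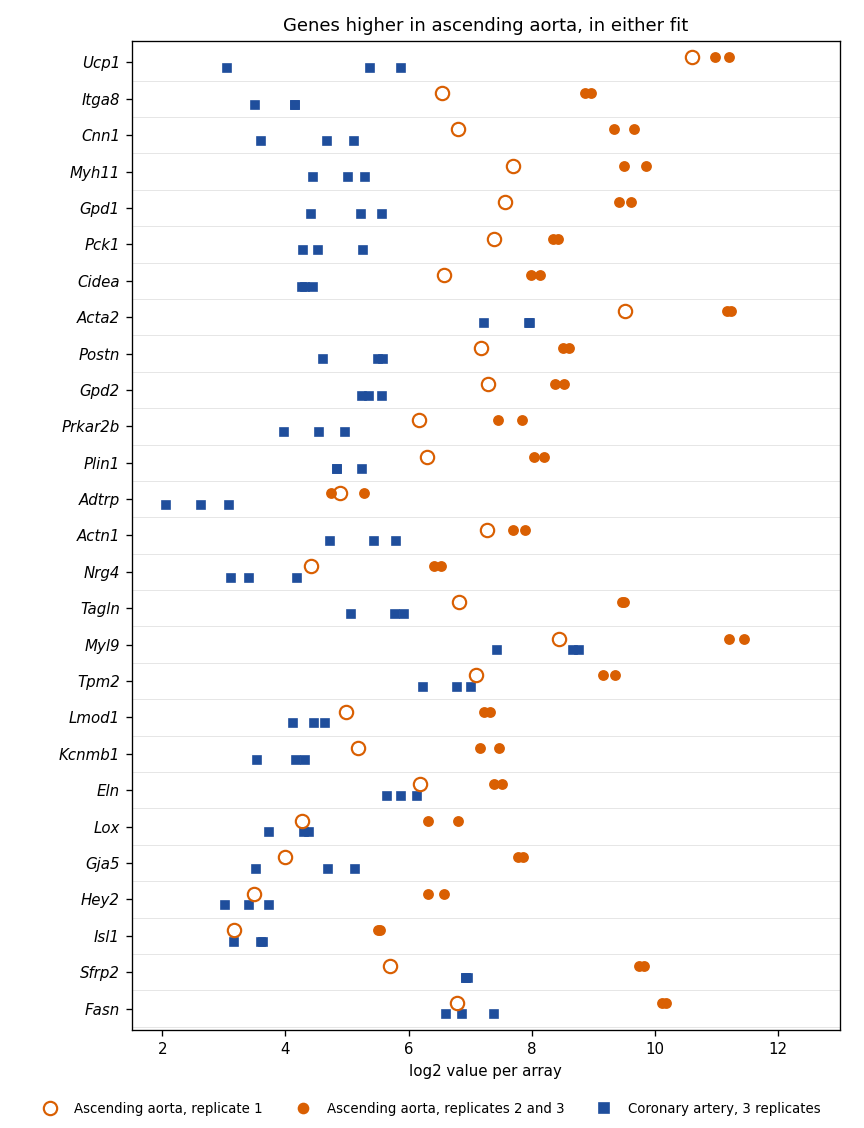
Log2 value per array of the 15 genes higher by the most in ascending aorta with all arrays (Ucp1 to Nrg4) and of 12 further genes past the threshold without replicate 1 (Tagln to Fasn), ascending aorta as circles (replicate 1 open) and coronary artery as squares. Replicate 1 lies between the coronary artery arrays and the other ascending aorta arrays in most of the upper rows and within, near or below the coronary range in the lowest rows. The 12 further genes were picked among those called only without replicate 1, so its place there follows largely from the choice.

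Regulators and receptors of smooth muscle tone differed less than the contractile genes. Of 20 regulators 0 passed in limma with all arrays (5 at an unadjusted p under 0.05) and 2 were higher without replicate 1, Mrvi1, a substrate of cGMP-dependent kinase, and Heyl, a Notch target. In that fit Mrvi1 lost its call under 10 of 19 alternatives, at a highest limma adjusted p of 0.336, and Heyl when ascending aorta replicate 2 or 3 was left out too (highest 0.079). Kcnmb1, the smooth muscle subunit of the large calcium-activated potassium channel, was at 5.18, 7.16 and 7.47 in ascending aorta and at 4.17, 3.54 and 4.31 in coronary artery. Its limma adjusted p was 0.0577 with all arrays and 0.00367 without replicate 1 (0.0534 when replicate 3 was left out too), and it was the 1 ion channel gene of 16 that passed. Of 16 receptors 1 passed, in both fits, and it was lower: Agtr1a, the angiotensin receptor, at 4.10, 4.66 and 4.42 in ascending aorta against 6.31, 6.01 and 6.62 in coronary artery, a difference of -1.92 ± 0.22 (limma adjusted p = 0.000241). Des, desmin, the intermediate filament of heart and muscle, was lower by -3.16 ± 0.66. Leaving out any coronary array, or ascending aorta replicate 2 or 3, ended its call, with a highest limma adjusted p of 0.120.

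Within contractile gene families, members known from heart were among the lower genes and members known from smooth muscle among the higher ones. In the actin family Actc1 was lower and Acta2 and Actb, the cytoplasmic actin, higher with all arrays. Actb was at 12.01, 11.75 and 11.78 in ascending aorta and between 10.88 and 11.30 in coronary artery, and missed the threshold without replicate 1 (limma adjusted p = 0.0601). Among 12 myosin light chains, Myl2, Myl3, Myl4 and Myl7 were lower in both fits, and Myl9 and Myl6 were higher without replicate 1. Myl6, the smooth muscle and non-muscle essential chain, was at 10.31, 11.29 and 11.30 in ascending aorta and at 10.11, 10.11 and 9.98 in coronary artery; its 6 probe sets differed by between 0.82 and 0.91 with all arrays. Its call without replicate 1 ended when replicate 2 or 3 was left out too, at a highest limma adjusted p of 0.0901.

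Troponins and tropomyosins followed the same lines. Tnnt2, cardiac troponin T, was at 5.48, 6.39 and 6.51 in ascending aorta and at 11.30, 11.21 and 11.42 in coronary artery, a 36.4-fold lower level. Tpm2, a tropomyosin abundant in smooth muscle, was at 7.09, 9.16 and 9.36 in ascending aorta and at 6.78, 7.01 and 6.24 in coronary artery, and passed without replicate 1 (difference 2.58 ± 0.52, limma adjusted p = 0.012). Tpm1, made by both muscles in different splice forms, was at 7.04, 8.77 and 8.81 in ascending aorta and at 9.88, 9.75 and 9.99 in coronary artery, with a limma adjusted p of 0.116. Lmod2 and Lmod3, leiomodins of striated muscle, were lower by -5.39 ± 0.25 and -3.02 ± 0.29. Lmod1, the smooth muscle leiomodin, was at 4.99, 7.23 and 7.32 in ascending aorta and at 4.64, 4.12 and 4.46 in coronary artery, and passed as higher without replicate 1 (limma adjusted p = 0.0148). In that fit Lmod1 lost its call under 4 of 19 alternatives and Tpm2 under 3, each including the loss of ascending aorta replicate 2 or 3, with highest adjusted p-values of 0.117 and 0.108. Tmod1, a tropomodulin that caps actin in heart muscle, was lower in its brighter probe set by -3.71 ± 0.64, while the other probe set differed by 0.002. Its call ended without coronary artery replicate 3 (0.0503).

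**Figure D5:**
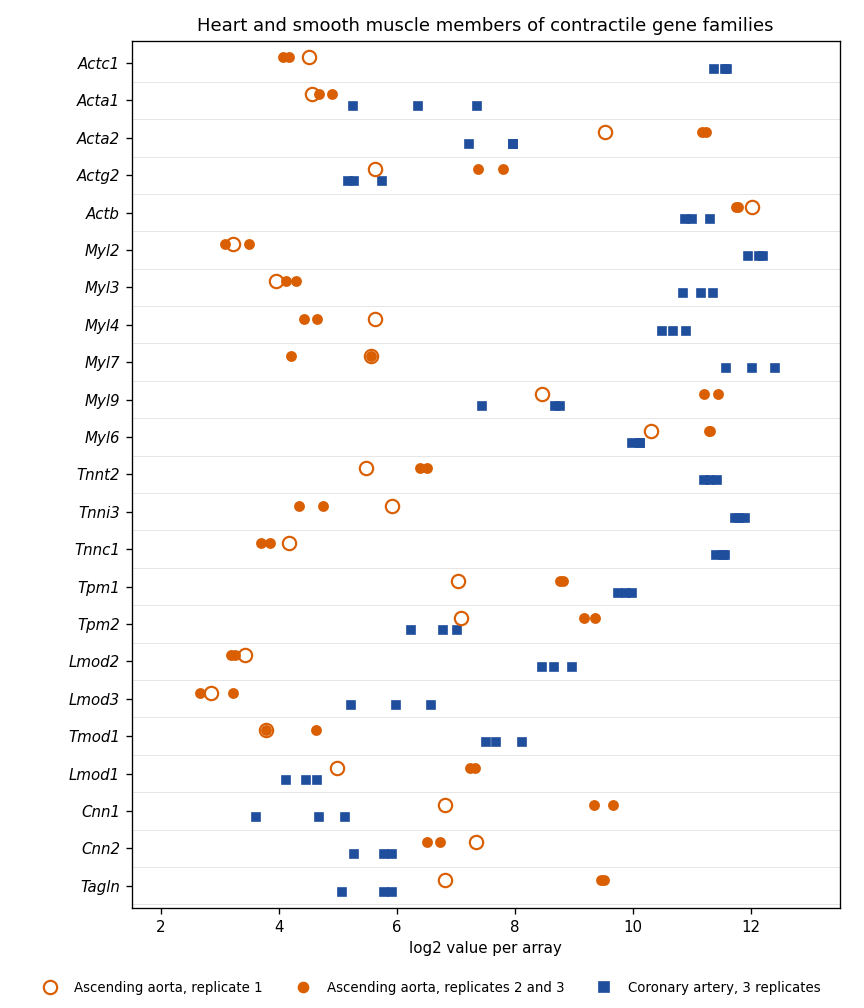
Log2 value per array of 23 members of contractile gene families, grouped as actins, myosin light chains, troponins and tropomyosins, and leiomodins with calponins and transgelin. Heart members (Actc1, Myl2, Tnnt2, Lmod2) lie lower in ascending aorta (circles, replicate 1 open) than in coronary artery (squares), and smooth muscle members (Acta2, Myl9, Tpm2, Lmod1) lie higher in replicates 2 and 3.

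Elastic fibre genes were higher in ascending aorta for 1 of 20 members with all arrays and for 7 without replicate 1. Eln, elastin, the rubber-like core of the fibre, was at 6.19, 7.38 and 7.51 in ascending aorta and at 5.88, 6.13 and 5.65 in coronary artery. Replicate 1 lay just above the highest coronary artery array, and the difference was 1.14 ± 0.34 with all arrays (limma adjusted p = 0.114). Without replicate 1, with 2 ascending aorta arrays left, the difference was 1.56 ± 0.27 (limma adjusted p = 0.00411). Lox, the enzyme that crosslinks elastin and collagen, was at 4.26, 6.31 and 6.80 in ascending aorta and at 4.38, 4.30 and 3.73 in coronary artery, with a difference of 2.42 ± 0.34 without replicate 1 (limma adjusted p = 0.000931). Ltbp2, a microfibril protein, was the member that passed with all arrays, at 5.28, 5.65 and 5.19 in ascending aorta against 4.14, 3.78 and 3.65 in coronary artery (difference 1.52 ± 0.24, limma adjusted p = 0.0043). In Ltbp2 replicate 1 lay between the other ascending aorta arrays.

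Many genes changed sign with that array, Mfap5 and Pi16 among them. Of 24 proteoglycan genes, 6 had positive differences with all arrays and 16 without replicate 1. Mfap5, a microfibril protein, was at 5.96, 10.10 and 10.34 in ascending aorta and at 9.46, 9.06 and 8.82 in coronary artery, which gave a difference of -0.32 ± 0.84 with all arrays and 1.10 ± 0.28 without replicate 1 (limma adjusted p = 0.043). In the fit without replicate 1 it lost its call under 8 of 19 alternatives, at a highest adjusted p of 0.276. Pi16, a marker of adventitial fibroblasts in mouse, was at 4.18, 8.38 and 8.2 in ascending aorta and at 7.24, 7.25 and 6.59 in coronary artery. Its difference was -0.11 ± 0.81 with all arrays and 1.26 ± 0.25 without replicate 1 (limma adjusted p = 0.0108), and that call ended when replicate 2 or 3 was left out too (highest 0.127). Of 19 fibroblast genes 0 passed in limma with all arrays (1 at an unadjusted p under 0.05) and 5 were higher without replicate 1. All 19 had positive differences in that fit, against 7 of 19 with all arrays.

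Postn, periostin, a matricellular protein of valves and injured heart, was at 7.18, 8.61 and 8.50 in ascending aorta and at 5.58, 4.61 and 5.51 in coronary artery, a 7.27-fold higher level (limma adjusted p = 0.0384). It lost its call under 11 of 20 alternatives, with a highest adjusted p of 0.151. Ccn3, of the same class of matrix signals, was at 5.63, 7.65 and 7.86 in ascending aorta and at 4.94, 4.88 and 3.99 in coronary artery, and passed without replicate 1 (limma adjusted p = 0.0077), but not when replicate 2 or 3 was left out too (highest 0.0807). Of 16 measured genes of heritable thoracic aortic disease 2 were higher with all arrays, Acta2 and Myh11, and 6 without replicate 1, to which Lox, Bgn, Tgfb3 and Mfap5 were added. The Bgn call ended under 8 of 19 alternatives, at a highest limma adjusted p of 0.214, and the Tgfb3 call when ascending aorta replicate 2 or 3 was left out too (highest 0.0623). Collagens gave 0 of 29 with all arrays and 3 higher without replicate 1, proteoglycans 0 of 24 and 1, and matrix proteases with their inhibitors 0 of 21 in both limma fits. At an unadjusted p under 0.05 with all arrays, the counts were 3 collagens, 4 proteoglycans and 0 proteases or inhibitors.

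Signalling lists gave few calls with all arrays and more, all higher, without replicate 1. In the Wnt list 0 of 31 passed in limma with all arrays (5 at an unadjusted p under 0.05) and 5 were higher without replicate 1. Sfrp2, a secreted Wnt modulator, was at 5.70, 9.83 and 9.75 in ascending aorta and at 6.94, 6.96 and 6.93 in coronary artery. Replicate 1 lay below the coronary arrays and the others well above, and the difference without it was 2.85 ± 0.23 (limma adjusted p = 7.93e-06). Sfrp4 was at 3.62, 7.42 and 7.48 in ascending aorta and at 4.93, 3.78 and 4.05 in coronary artery, with a difference of 3.20 ± 0.28 without replicate 1. In the TGF-beta and BMP list 0 of 31 passed in limma with all arrays (5 at an unadjusted p under 0.05) and 3 were higher without replicate 1, Gdf10, Tgfb3 and Fst.

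Notch genes gave 1 higher of 18 with all arrays and 3 without replicate 1. Mfng, which adds sugars to Notch receptors, was at 5.60, 5.17 and 5.49 in ascending aorta and at 4.01, 4.30 and 4.34 in coronary artery, a difference of 1.20 ± 0.24 (limma adjusted p = 0.0207). Hey2, a Notch target of arteries and of ventricular muscle, was at 3.49, 6.58 and 6.32 in ascending aorta and at 3.40, 3.74 and 3.02 in coronary artery. Its limma adjusted p was 0.137 with all arrays and 0.000204 without replicate 1. Mfng lost its call without ascending aorta replicate 3 or any coronary array, at a highest adjusted p of 0.0926.

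Of 31 regulators of the second heart field and neural crest, 0 passed in limma with all arrays (7 at an unadjusted p under 0.05), 5 were higher without replicate 1 and 4 with array weights. Isl1, a homeobox gene of second heart field progenitors, was at 3.16, 5.51 and 5.53 in ascending aorta and at 3.16, 3.61 and 3.64 in coronary artery, a difference of 2.05 ± 0.29 without replicate 1 (limma adjusted p = 0.00114). Its mean was 4.59 in descending aorta and 5.41 in superior mesenteric artery. Dlx5, a homeobox gene of the neural crest, was at 3.89, 5.04 and 6.08 in ascending aorta and at 3.90, 3.47 and 3.86 in coronary artery, with a limma adjusted p of 0.00341 without replicate 1. Fgf10, a growth factor of the second heart field, was at 3.77, 4.98 and 5.11 in ascending aorta and at 3.41, 3.45 and 3.34 in coronary artery. Twist1 and Prrx2, mesenchymal factors, made up the 5. Of these, Dlx5, Fgf10, Twist1 and Prrx2 lost their calls when ascending aorta replicate 3 was left out as well, which leaves 1 array of that vessel. Fgf10 and Prrx2 also lost them when replicate 2 was left out instead. The Twist1 call ended without coronary artery replicate 3 too, and the Prrx2 call without coronary artery replicate 1. Of 37 Hox genes 0 passed in either limma fit (1 and 5 at an unadjusted p under 0.05), and the list averaged between 3.24 and 3.45 in these 6 arrays.

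Some defining genes of brown fat were among those most raised in ascending aorta. Ucp1, the uncoupling protein that makes brown fat produce heat, was at 10.60, 11.21 and 10.97 in ascending aorta and at 5.87, 5.38 and 3.05 in coronary artery, a 71.6-fold higher level (limma adjusted p = 0.00105). Replicate 1 lay with the other ascending arrays for Ucp1, and coronary artery replicate 3 was the lowest. Cidea, a lipid droplet protein of brown fat, was at 6.57, 7.98 and 8.13 in ascending aorta and at 4.45, 4.32 and 4.26 in coronary artery, a difference of 3.22 ± 0.38 (limma adjusted p = 0.000328). Of 13 brown adipocyte genes 3 were higher with all arrays, the other being Dio2, a thyroid hormone activating enzyme, and 5 without replicate 1. Dio2 lost its call under 3 of 20 alternatives, at a highest limma adjusted p of 0.0747. The list's median difference was 0.41 with all arrays and 0.042 without replicate 1, and 5 of the 13 differences were negative in each fit. Nrg4, a secreted factor of brown fat, was at 4.41, 6.52 and 6.41 in ascending aorta and at 3.11, 3.41 and 4.18 in coronary artery; it lost its call under 7 of 20 alternatives, at a highest limma adjusted p of 0.167. Elovl3, a fatty acid elongase of cold-stimulated brown fat, was at 3.85, 2.40 and 2.15 in ascending aorta and at 2.32, 2.43 and 2.41 in coronary artery.

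Genes of fat cells in general gave 6 higher of 20 with all arrays and 15 without replicate 1, with 0 lower. Plin1, which coats lipid droplets, was at 6.30, 8.03 and 8.2 in ascending aorta and at 4.83, 4.83 and 5.25 in coronary artery, a difference of 2.54 ± 0.41 (limma adjusted p = 0.00427). Lipe, hormone-sensitive lipase, was higher by 1.88 ± 0.33, and Pparg, Adipoq and Fabp4 by 1.74 ± 0.41, 1.74 ± 0.41 and 1.01 ± 0.23. Pparg, the master regulator of fat cells, Adipoq, adiponectin, and Fabp4, a fatty acid carrier, lost their calls under 15, 14 and 12 of 20 alternatives, with highest limma adjusted p-values of 0.185, 0.226 and 0.180. The count of higher members was 2 or 3 on leaving out any 1 array except replicate 1 of ascending aorta (15) or of superior mesenteric artery (6), and 0 when the 6 arrays were fitted alone. In that fit Plin1 and Lipe missed the threshold at limma adjusted p-values of 0.0632 and 0.0673.

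Lipid synthesis genes showed the widest gap between the fits, with 3 of 22 higher with all arrays and 18 without replicate 1, and a median difference of 1.29 and 2.16. Gpd1, which makes the glycerol backbone of fat, was at 7.56, 9.61 and 9.42 in ascending aorta and at 5.57, 5.23 and 4.41 in coronary artery, a 13.9-fold higher level (limma adjusted p = 0.000489). Pck1, an enzyme of glycerol and glucose synthesis, was at 7.39, 8.34 and 8.43 in ascending aorta and at 5.26, 4.53 and 4.28 in coronary artery, a 10.3-fold higher level. Fasn, fatty acid synthase, was at 6.79, 10.11 and 10.18 in ascending aorta and at 6.87, 6.61 and 7.39 in coronary artery, where replicate 1 lay within the coronary range. Its difference was 2.07 ± 0.71 with all arrays (limma adjusted p = 0.186) and 3.18 ± 0.36 without replicate 1 (0.000156). Acaca, Acly and Elovl6, further enzymes of the same pathway, differed by 3.04 ± 0.38, 2.95 ± 0.46 and 3.19 ± 0.50 without replicate 1.

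Other genes among the 15 largest higher differences with all arrays belonged to none of these lists or to several. Gpd2, the mitochondrial partner of Gpd1, was at 7.29, 8.52 and 8.37 in ascending aorta and at 5.24, 5.57 and 5.35 in coronary artery, a 6.37-fold higher level (limma adjusted p = 0.000373). Adtrp, an androgen-dependent regulator of tissue factor inhibition, was at 4.89, 4.74 and 5.27 in ascending aorta and at 2.06, 2.63 and 3.08 in coronary artery, a difference of 2.37 ± 0.36 (limma adjusted p = 0.0029). In Adtrp replicate 1 lay with the others, as it did for Ucp1. Prkar2b, a regulatory subunit of protein kinase A, was higher by 2.65 ± 0.39. Actn1, the alpha-actinin of non-striated cells, was at 7.28, 7.69 and 7.89 in ascending aorta and at 5.44, 5.79 and 4.73 in coronary artery. Actn1 lost its call under 9 of 20 alternatives, with a highest limma adjusted p of 0.159. Without replicate 1, Tmem45b, Cpxm2 and Trarg1 joined the 15 largest, with differences of 3.89 ± 0.48, 3.38 ± 0.42 and 3.33 ± 0.50.

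Blood and immune cell genes gave few calls between the vessels. In the B cell, T cell, thymus, macrophage, antigen presentation, cell cycle and erythroid lists 0 genes passed in either fit by limma, and at an unadjusted p under 0.05 it was 3 of their 88 entries with all arrays and 4 without replicate 1. Over all 19938 genes the unadjusted counts were 2948 and 2938. With all arrays, the shared spread of the B and T cell genes includes the raised arrays described above. The complement and chemokine list gave 0 calls of 24 with all arrays and 2 higher without replicate 1. At an unadjusted limma p under 0.05 it had 8 and 10 members in these fits. At the level of single arrays the B cell markers Cd79a, Ms4a1 and Pax5 were at 8.29, 8.17 and 7.25 in ascending aorta replicate 1 and between 2.73 and 5.59 in the other 5 arrays. The 14 of 15 B cell genes with a positive difference with all arrays became 2 of 15 without replicate 1. Macrophage genes averaged 6.51, 6.43 and 6.45 in ascending aorta and 6.82, 6.2 and 6.51 in coronary artery, so the ranges overlapped. Chst4, a sulfotransferase of lymph node venules, was the 1 member of the lymph node stroma list that passed, and it was lower, at 4.42, 4.19 and 5.38 in ascending aorta and 6.63, 7.21 and 6.28 in coronary artery (limma adjusted p = 0.0169). Its call ended without ascending aorta replicate 2 or coronary artery replicate 1 or 2, at a highest adjusted p of 0.085.

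Clock and immediate early genes, which respond to the hour and handling of a dissection, gave 0 calls of 17 and 0 of 25 in either limma fit. At an unadjusted p under 0.05 with all arrays, it was 2 clock and 3 immediate early genes. Skeletal muscle genes averaged between 3.31 and 3.42 in ascending aorta and between 3.62 and 3.70 in coronary artery, near the level of the cartilage list. Of its 21 members Tnnt1 was lower with all arrays and missed without replicate 1 (limma adjusted p = 0.0505). The fast skeletal genes Myh4, Mylpf, Tnnt3 and Actn3 lay between 2.43 and 4.96 in all 6 arrays.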

How the data were processed

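The authors deposited 1 table of log2 values for 35556 probe sets on 12 Affymetrix arrays; RMA and Partek 6.6 are named in the submitters' processing notes, without role or order. The deposited normalization was kept. Total RNA was extracted with Trizol and 6 ug went into labelled cRNA, per the labels. Probe sets with 1 symbol in the platform annotation (21789) were kept, those with several (1621) or none (12146) left out, and the one with the highest mean stood for each of the 19938 genes (999 had several). Each vessel had its own mean in a linear model of all 12 arrays, fitted with limma 3.58.1 (R 4.3.3, 8 residual degrees of freedom), and again to 11 arrays without ascending aorta replicate 1 (7 degrees). The procedure was tested on simulated data. Members, the 62 gene lists and the alternatives were chosen with earlier results of these data known. Genes to be named were drawn by rule. The rule took the 15 largest per direction and fit past the threshold (unnamed models skipped) and defining cell type markers. From the lists it took up to 6 members past the threshold or else the 3 largest, and every member of 5 gene families. Not all genes drawn are described, and Ppp1r12b was added to complete a count. Figures were drawn with matplotlib.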

Additional observations from a re-analysis of the deposited data

How the results depend on the processing

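With all arrays the 120 higher and 373 lower genes (493 in all) became 402 higher of 887 with array weights, 42 and 210 of 252 when the 6 arrays were fitted alone, and 27 and 200 of 227 at a threshold of 0.01. Leaving out 1 array at a time gave 251 to 768 in all, 35 to 404 higher and 216 to 419 lower; besides the arrays named in the report, the total fell to 326, 280 and 251 without coronary artery replicate 1, 2 or 3. Without ascending aorta replicate 1 (768 in all), a threshold of 0.01 left 184 higher and 217 lower of 401, and leaving out a further array gave 361 to 1093 in all, 171 to 596 higher and 182 to 497 lower, with 361 without ascending aorta replicate 2 and 417 without replicate 3. The cause of these moves was not tested. Of the named genes called with all arrays, 57 of 92 kept their call under every alternative that gave a value, and 0 reversed; without replicate 1 it was 76 of 156, and 0 reversed. Renewed quantile normalization, median centring, probe set choice, a filter on the dimmest 25% of genes, an intensity trend and a 2-fold minimum moved the counts by less than 1.5 times.

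The replicate number as a block gave 493 genes, 111 higher and 382 lower, with all arrays, and 818 without replicate 1. Deviations of same-numbered arrays from their vessel means correlated at 0.019, -0.074 and 0.019. With 3 arrays per vessel and 1 of them far from the others in ascending aorta, these values cannot show whether same-numbered arrays shared a mouse. The number of arrays limits the precision, and values near background limit the folds.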
